A study of Homo sapiens with 24 samples.

Results

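LAN5 is a human neuroblastoma cell line, derived from a tumour of the sympathetic nervous system, that carries amplified MYCN and is labelled sensitive to GSK-J4. The response described here is that of every gene in the authors' comparison of LAN5 libraries from cultures given 1 µM GSK-J4 for 72 hours (n = 3) with LAN5 libraries from untreated cultures (n = 3). All rows of that comparison were taken: 33561 genes, of the 39052 listed for LAN5, IMR5 and SK-N-FI together. The study as a whole sequenced polyadenylated RNA from 24 libraries of 4 neuroblastoma lines, and 25753 LAN5 genes carry an adjusted p-value and are called tested below. What the untreated cultures received in place of the compound is not given in the sources used here.

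GSK-J4 is a cell-permeable ester that cells convert to an inhibitor of KDM6A and KDM6B, the Jumonji-domain enzymes that strip methylation from lysine 27 on histone H3. Those methyl groups are placed by EZH2 within Polycomb repressive complex PRC2 and mark silent developmental genes. Neuroblastoma cells of the adrenergic type keep the sympathetic neuroblast programme of HAND2, GATA3, ISL1 and related factors, and in MYCN-amplified tumours the MYCN protein drives growth, ribosome production and the cell cycle. The study compared treated and untreated cultures to find what the compound does to transcription in neuroblastoma lines.

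Fold changes are log2 values with standard errors, and they are shrunken toward 0 by the authors' fit. They were read as GSK-J4 over untreated, a direction the table does not state, since the study is known for reporting that the apoptosis gene BBC3 is induced, and BBC3 is positive here. The sign of BBC3 is therefore part of the reading and not a result. Higher and lower mean an adjusted p under 0.05 (DESeq2's Wald test, Benjamini-Hochberg). Values of single libraries were not used, so group levels below are estimated mean normalized counts, solved from the deposited mean and the fold change after the shrinkage was removed. They carry no replicate error of their own. The labels do not say that the 3 libraries of a group are separate cultures, so a p-value here reflects library-to-library spread that could be technical only. RNA came from whole cultures, so fewer cells of a type and less RNA per cell cannot be told apart.

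The neuroblast identity of the line was visible in its markers. All 15 sympathetic neuroblast markers were tested, with untreated levels from 371 for PRPH, an intermediate filament gene, to 23755 for ELAVL4, a neuronal RNA-binding protein gene. After treatment 13 of the 15 were lower (86.7%) and 1 higher, with a median log2 fold change of -0.82, and their estimated levels summed to 95116 untreated and 49220.5 treated normalized counts. Of 6 tested Schwann and glial markers 3 were higher and none lower, and their levels summed to 63.0 untreated and 376 treated. Of those reported here by name, ERBB3 and GFAP went from an estimated 3.39 to 18.2 and from 3.16 to 14.3, a small part of that sum, and S100B and MBP, each with an estimated level below 10 in both groups, were not called. The fibroblast and muscle markers summed to 2708 and 2354 over 10 tested members, and the immune and endothelial markers to 78.1 and 43.9. FOXD3, AIF1 and HBA1 were listed with means too low to be tested. The part of glial or other cells in the results below was not tested. Depth per library is unknown here, and the deposited means summed to 15458940 normalized counts over all genes.

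Promoters of a few genes that moved strongly are shown first, because their letters recur in several of the gene groups described below. Each is the 250 bases before the RefSeq start site on GRCh38.p14, written 5′ to 3′ on the gene's strand, with the matches to the searched letters in capitals. ASNS (chr7:97872409-97872658, minus strand) encodes asparagine synthetase and CHAC1 (chr15:40953221-40953470, plus strand) a glutathione-degrading enzyme. Their capitals mark the C/EBP-ATF response element, searched as TGATGNAA on both strands.
ASNS: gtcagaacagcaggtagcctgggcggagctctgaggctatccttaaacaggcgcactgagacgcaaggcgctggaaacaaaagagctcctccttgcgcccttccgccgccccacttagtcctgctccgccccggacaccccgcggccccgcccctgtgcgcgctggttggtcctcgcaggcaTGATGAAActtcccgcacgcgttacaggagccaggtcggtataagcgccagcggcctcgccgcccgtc
CHAC1: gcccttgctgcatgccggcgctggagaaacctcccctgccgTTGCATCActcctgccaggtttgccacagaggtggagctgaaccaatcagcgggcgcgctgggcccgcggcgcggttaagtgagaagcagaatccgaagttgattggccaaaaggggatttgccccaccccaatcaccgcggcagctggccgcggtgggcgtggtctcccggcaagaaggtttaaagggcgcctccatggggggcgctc

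MT2A (chr16:56608334-56608583, plus strand) and MT1X (chr16:56682220-56682469, plus strand) encode metallothioneins, small proteins that bind zinc and copper. Their capitals mark the metal response element, searched as TGCACNC or TGCGCNC on both strands.
MT2A: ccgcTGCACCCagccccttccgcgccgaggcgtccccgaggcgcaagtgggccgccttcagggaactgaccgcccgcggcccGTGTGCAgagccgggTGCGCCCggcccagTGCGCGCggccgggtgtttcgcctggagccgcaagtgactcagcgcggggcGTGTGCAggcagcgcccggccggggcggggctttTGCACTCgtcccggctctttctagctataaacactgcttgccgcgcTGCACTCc
MT1X: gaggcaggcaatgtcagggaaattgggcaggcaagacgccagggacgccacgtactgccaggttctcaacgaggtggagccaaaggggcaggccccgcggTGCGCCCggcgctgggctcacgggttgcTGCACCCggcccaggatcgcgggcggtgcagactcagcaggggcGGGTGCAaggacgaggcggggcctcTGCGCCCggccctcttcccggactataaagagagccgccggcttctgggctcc

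CENPA (chr2:26785806-26786055, plus strand) encodes the histone H3 variant of centromeres, and its capitals mark the cell cycle homology region, searched as TTTGAA or TTCGAA on both strands. MCM6 (chr2:135876444-135876693, minus strand) encodes a subunit of the replicative helicase, and its capitals mark the E2F site, searched as TTTCCCGC or TTTGGCGC on both strands. CENPA also holds 1 match to the E2F letters, and MCM6 1 match to the cell cycle homology letters, both left in lower case. None of the letters searched for these 4 motifs contains another. A match describes these letters only, and the 6 promoters were chosen after their matches were seen.
CENPA: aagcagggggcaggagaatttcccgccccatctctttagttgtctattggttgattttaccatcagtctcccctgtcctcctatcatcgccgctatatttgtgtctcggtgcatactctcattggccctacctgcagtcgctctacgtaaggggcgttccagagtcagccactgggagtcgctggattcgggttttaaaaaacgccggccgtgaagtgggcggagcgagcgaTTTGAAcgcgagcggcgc
MCM6: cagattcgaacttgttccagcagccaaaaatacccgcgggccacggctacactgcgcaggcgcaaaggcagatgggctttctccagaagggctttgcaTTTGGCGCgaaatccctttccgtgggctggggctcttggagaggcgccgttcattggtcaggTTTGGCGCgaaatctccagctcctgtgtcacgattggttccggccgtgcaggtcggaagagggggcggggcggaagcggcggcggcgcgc

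GSK-J4 changed the LAN5 transcriptome broadly. Of 25753 tested genes, 5792 (22.5%) were higher and 4944 (19.2%) lower, and 3051 of the higher and 1003 of the lower genes had an absolute log2 fold change of at least 1. The balance turned with expression level. Among genes with a mean under 10, 1068 were higher and 52 lower, while among genes with a mean of 1000 and over, 1084 were higher and 1785 lower. Of the 11145 tested genes whose mean reached 100, 3141 (28.2%) were higher and 4330 (38.9%) lower. The plot of fold change against mean shows this turn, with the large rises among genes that were nearly silent before treatment. The largest folds of weak genes rest on an untreated level near 0 and are not bounds.

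**Figure D1:**
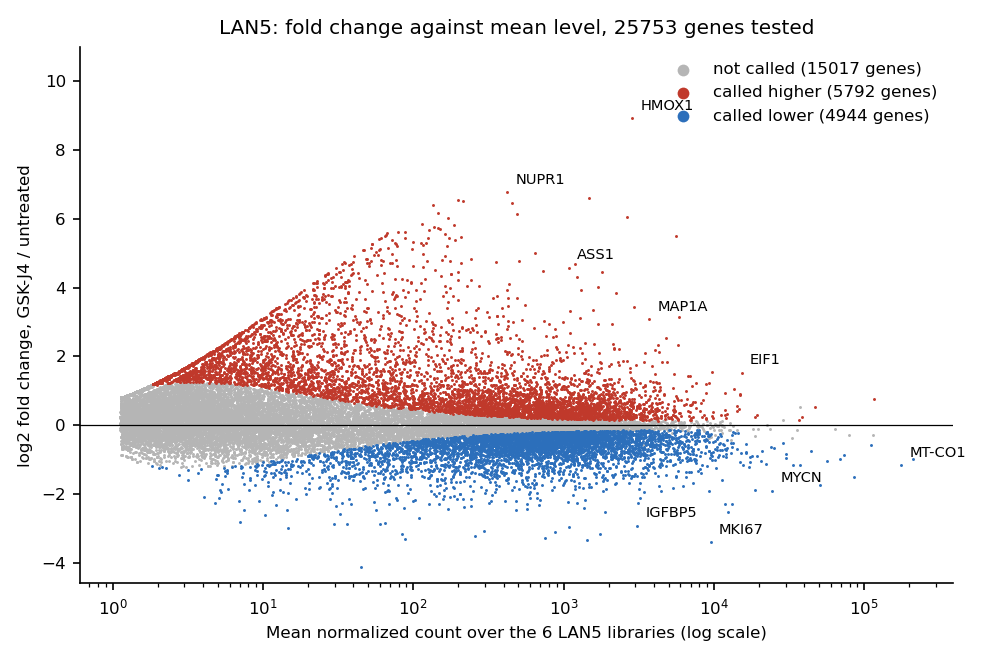
Each point is 1 of the 25753 tested LAN5 genes, with its mean normalized count over all 6 libraries on a log x axis and its deposited log2 fold change on the y axis. The 5792 higher genes (red) reach 8.93 for HMOX1, while the lower genes (blue) reach -3.39 for MKI67 among genes whose mean reached 100.

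Protein-coding genes and pseudogenes turned with level, and long non-coding RNAs had more higher than lower genes in each of the 4 bins of the mean. Of 15505 tested protein-coding genes, 29% were higher and 28.3% lower. Of 5568 long non-coding RNA genes, 15% were higher and 5.30% lower, and of 3278 pseudogenes 10.7% and 5.74%. Among genes with a mean of 1000 and over, 28.4% of protein-coding genes were higher and 46.4% lower, against 30% and 26.7% of only 30 long non-coding RNAs. Long intergenic non-coding RNA genes by name had 208 higher and 32 lower of 645 tested, most of them weak, and among those whose mean reached 100 the counts were 21 and 14 of 59.

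**Figure D2:**
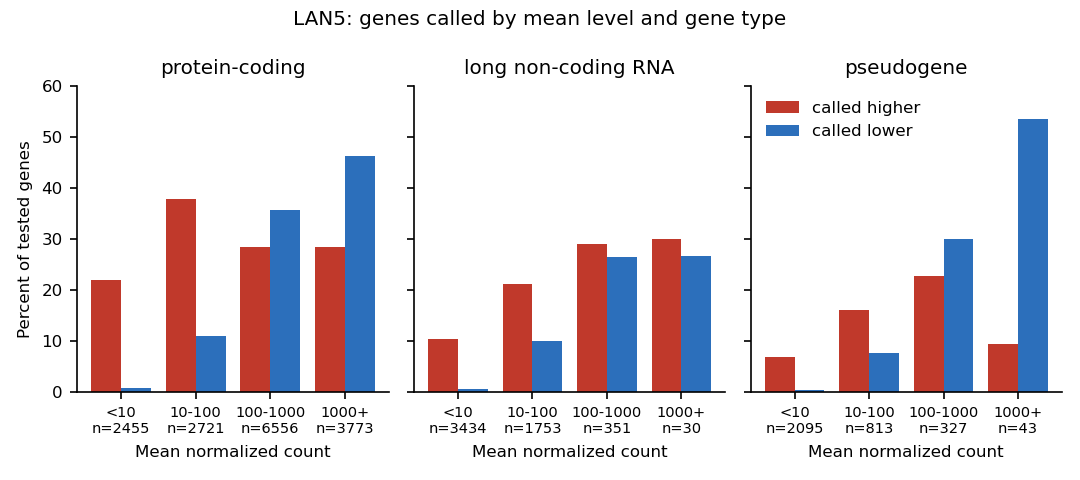
Bars give the percent of tested LAN5 genes called higher (red) and lower (blue) in 4 bins of the mean normalized count, for protein-coding genes, long non-coding RNAs and pseudogenes, with the number tested under each bin. Protein-coding genes go from 21.9% higher and 0.692% lower below a mean of 10 to 28.4% and 46.4% at 1000 and over.

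The enzymes that GSK-J4 is made to inhibit and their opponents were examined next. KDM6B (chromosome 17, 7839904 to 7854796, ENSG00000132510 on GRCh38) went from an estimated 1046 to 1531 normalized counts, and KDM6A (chromosome X, 44873177 to 45112602, ENSG00000147050) from 408 to 579. The deposited log2 fold changes were 0.55 ± 0.0772 for KDM6B and 0.50 ± 0.0998 for KDM6A, both higher, in the authors' deposited table. EZH2, the PRC2 methyltransferase, went from 1464 to 893, and was lower, at -0.71 ± 0.0753 in the authors' deposited table. Of 14 genes in the list of H3K27 demethylases and PRC2, 4 were higher and 8 lower, a median of -0.19 against 0.09 over all tested genes and -0.09 over those whose mean reached 100. PHF1, a PRC2 accessory factor, rose by 1.10 ± 0.100 and its relative PHF19 fell by 0.76 ± 0.099 in the authors' deposited table, and EPOP, another accessory gene, fell by 1.25 ± 0.134 in the authors' deposited table. The histone-binding subunits RBBP4 and RBBP7 were also lower, at -0.54 and -0.32 in the authors' deposited table. EZH1 and EED, at 0.02 ± 0.0862 and -0.01 ± 0.0937 in the authors' deposited table, did not pass the test.

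PRC1, the complex that binds the H3K27 mark, had 5 of 18 members higher (27.8%) and 4 lower (22.2%), shares near those of all tested genes. PCGF5, a ring finger subunit, rose by 1.33 ± 0.385, and the chromobox gene CBX2 fell by 0.77 ± 0.0689, in the authors' deposited table. Of 23 other Jumonji demethylase genes 7 were higher and 8 lower, shares of 30.4% and 34.8% that lie near those of genes whose mean reached 100. KDM3A, KDM4A and KDM5B, demethylases of other lysines of histone H3, were higher, at 0.90, 0.63 and 0.62 in the authors' deposited table. KDM8 and JMJD8 were the lowest, at -1.26 and -1.19 in the authors' deposited table. Of 15 DNA methylation genes 3 were higher and 6 lower. UHRF1, which recruits DNMT1 to new DNA, fell by 1.80 ± 0.0784, DNMT1, the maintenance methyltransferase, by 0.52 ± 0.059 and TET1, a methylcytosine oxidase, by 0.57 ± 0.0841, while TET2 rose by 0.42 ± 0.0856, in the authors' deposited table.

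Genes that Polycomb usually keeps silent outside their own tissues were counted by list. Of 21 homeobox and lineage factor genes of other tissues 9 were higher (42.9%) and 3 lower (14.3%). All tested genes had shares of 22.5% and 19.2%, and protein-coding genes with a mean of 10 to 100 had 37.7% and 10.8%. Level was therefore not set apart. Of the 9 higher members 8 had a mean under 100, and of the 6 members whose mean reached 100, 1 was higher and 3 were lower. The 9 higher members included MSX1 (2.51 to 52.5 estimated normalized counts), DLX2 (3.69 to 65.2), IRX5 (9.77 to 49) and MSX2 (82 to 276). With a mean of at least 100 required and p adjusted again, the members lower outnumbered those higher by 2. Of 13 tested HOX cluster genes 1 was higher and 4 were lower, with HOXC13 at 2.08 ± 0.537 and HOXD9 at -1.13 ± 0.131 in the authors' deposited table. HOXC13 had a mean under 100 and an error near the largest in LAN5 (0.539), so its size is uncertain. Other HOX genes were not analysed here.

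Genes that load amino acids onto tRNA differed between the cytosolic and the mitochondrial list. The cytosolic aminoacyl-tRNA synthetases had 12 of 20 genes higher (60%) and 6 lower (30%). WARS1, for tryptophan, rose by 2.18 ± 0.067, CARS1, for cysteine, by 1.64 ± 0.0700, SARS1, for serine, by 1.42 ± 0.0667 and GARS1, for glycine, by 1.42 ± 0.0706 in the authors' deposited table. FARSB, VARS1 and QARS1, for phenylalanine, valine and glutamine, fell, at -0.80, -0.73 and -0.72 in the authors' deposited table. AARS1 and RARS1 were not called. GARS1 and KARS1 also encode the mitochondrial enzymes for their amino acids. Most other mitochondrial synthetases have nuclear genes of their own, and of 17 such genes tested none was higher and 12 (70.6%) were lower, from -0.36 for AARS2 to -1.0 for MARS2 in the authors' deposited table. The plot of single members shows the cytosolic set spread from -0.80 to 2.18 and every mitochondrial value below 0, 5 of them not called.

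**Figure D3:**
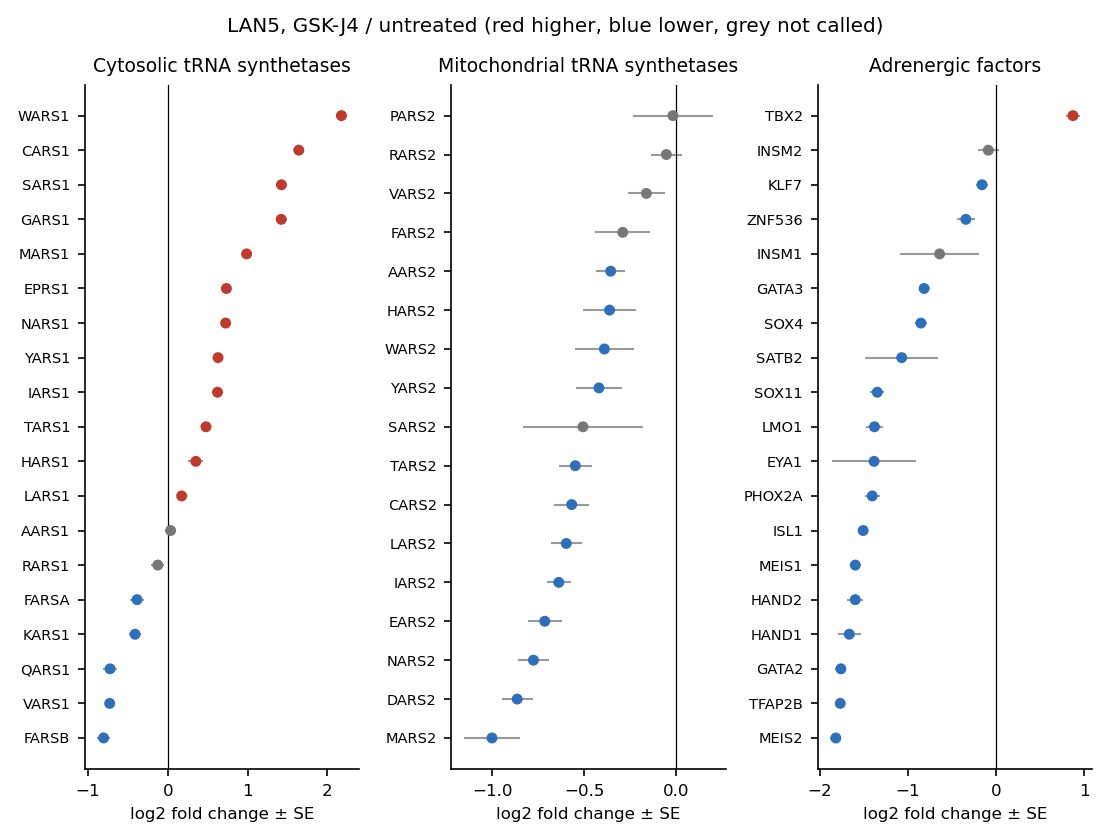
Points are deposited log2 fold changes with standard errors (bars) for tested members of 3 lists in LAN5 that are reported here, red higher, blue lower and grey not called; each panel has its own x axis. Cytosolic synthetase genes run from -0.80 to 2.18, mitochondrial ones lie between -1.0 and -0.02, and the adrenergic factors drawn lie below 0 except TBX2.

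The C/EBP-ATF letters shown for ASNS and CHAC1 occurred in 6 of 16 cytosolic synthetase promoters (37.5%), in 1 of 14 mitochondrial ones (7.14%) and in 3.67% of all 27305 promoters, each window running from 250 bases before to 50 after the start. The 6 were those of TARS1, IARS1, CARS1, MARS1, AARS1 and NARS1, of which AARS1 was not called and the others were higher. The letters were also in 4 of 20 amino acid transporter promoters (20%), 3 of which, SLC3A2, SLC38A1 and SLC7A1, belonged to higher genes. Among all promoters of protein-coding genes the share was 2.77% for higher and 1.22% for lower genes.

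Transporters and enzymes of amino acids were counted next, without matching them to the synthetases by amino acid. Of 26 amino acid transporter genes 15 were higher and 6 lower. SLC7A8, SLC7A3 and SLC3A2, the last being the heavy chain shared by several exchangers, rose by 3.68 ± 0.384, 2.85 ± 0.316 and 2.09 ± 0.0806 in the authors' deposited table. SLC38A5 and SLC1A2, a glutamine and a glutamate carrier, fell, at -1.82 and -1.09 in the authors' deposited table. SLC38A2, a glutamine carrier, was among the called genes with the highest mean counts, from an estimated 4585 to 10683 normalized counts. In serine and one-carbon metabolism 9 of 19 were higher and 4 lower. The enzymes from glucose to serine, PHGDH, PSAT1 and PSPH, rose by 0.89, 1.05 and 1.83, and the mitochondrial folate enzymes SHMT2, MTHFD2 and ALDH1L2 by 0.82, 1.25 and 1.30 in the authors' deposited table. The cytosolic folate enzyme MTHFD1 fell, at -0.73, and SHMT1 and TYMS, at -0.16 and -0.05, were not called in the authors' deposited table.

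Of 20 asparagine, proline, glutamate and transsulfuration enzymes 12 were higher and 5 lower. ASS1, which makes argininosuccinate, went from an estimated 83.4 to 2085 normalized counts. CTH, the last enzyme from methionine to cysteine, rose by 3.12 ± 0.164, ASNS by 2.53 ± 0.0602, CHAC1 by 3.71 ± 0.15 and PRODH, which degrades proline, by 2.67 ± 0.376 in the authors' deposited table. ALDH18A1 and PYCR3, of proline synthesis, fell by 1.34 ± 0.0669 and 1.33 ± 0.248, and glutamine synthetase GLUL by 0.68 ± 0.0759 in the authors' deposited table. Upstream, the regulatory genes of the eIF2 switch were divided, with 5 of 16 higher and 7 lower. PPP1R15A, which directs a phosphatase to eIF2-alpha, rose by 3.35 ± 0.0979 in the authors' deposited table. The 4 kinases EIF2AK1, EIF2AK2, EIF2AK3 and EIF2AK4 were all lower, between -0.40 and -0.20 in the authors' deposited table. Among 17 brakes on mTORC1, 5 were higher and 6 lower, and the 5 included TRIB3 (115 to 2346 estimated normalized counts), DDIT4 (43.1 to 493) and SESN2 (76.8 to 716).

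Protein quality control genes of the endoplasmic reticulum and the cytosol were examined as separate groups. Of 32 endoplasmic reticulum genes 14 were higher and 7 lower. EDEM1 and HERPUD1, of protein disposal, rose by 1.90 ± 0.0963 and 1.83 ± 0.0757, and ERN1 and XBP1, a sensor and its target, by 1.53 ± 0.107 and 1.32 ± 0.0677 in the authors' deposited table. SDF2L1 and MANF, both made during endoplasmic reticulum stress, fell by 1.73 ± 0.228 and 0.91 ± 0.0976, and the chaperone HSP90B1 fell by 0.54 ± 0.0696 in the authors' deposited table. HSPA5, the main chaperone there, was 0.03 ± 0.0619 and not called in the authors' deposited table. In the cytosol 15 of 26 heat shock genes were higher and 5 lower. HSPB8 and BAG3, partners in chaperone-assisted autophagy, went from 1.44 to 117 and from 158 to 1329.8 estimated normalized counts. HSPD1, the mitochondrial chaperonin, and BAG1 fell, at -0.54 and -0.72 in the authors' deposited table. HSPA1A and HSPA1B are near-identical, and their reads may have been split by the counting.

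Genes of the degradation systems were higher far more often than lower. Of 37 lysosome genes 29 were higher (78.4%) and 4 lower, a median of 0.78. NPC2, a cholesterol transfer protein of the lysosome, rose by 2.68 ± 0.271, NEU1, a sialidase, by 2.40 ± 0.136, TFEB, a transcription factor for lysosome genes, by 2.18 ± 0.312 and ATP6V0A1, a proton pump subunit, by 1.85 ± 0.0585 in the authors' deposited table. CTSF, a cathepsin, and MITF, another factor of the TFEB family, were lower, at -1.93 and -1.28 in the authors' deposited table, and the other lower members were CTSB (-0.21) and GAA (-0.29) in the authors' deposited table. E-box letters, CACGTG, which contain the hypoxia core ACGTG and read the same on both strands, were in 9 of 23 lysosome promoters (39.1%), in 7.43% of all promoters and in 9.66% of those of tested protein-coding genes. Of 32 autophagy genes 19 were higher and 1, ULK2 (-0.49 in the authors' deposited table), was lower. GABARAPL1, SQSTM1, OPTN and MAP1LC3B, cargo receptors and membrane conjugates, rose by 3.42 ± 0.142, 2.37 ± 0.0876, 1.99 ± 0.109 and 1.85 ± 0.0695 in the authors' deposited table. Of 31 proteasome subunit genes 19 were higher and 1 lower, with small sizes: PSMA1, PSMD12, PSMC2 and PSMC6 led at 0.97, 0.89, 0.66 and 0.65, and PSMC3 was -0.29 in the authors' deposited table. Of 19 vesicle coat and Golgi genes 10 were higher and 1, COPE, was lower.

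Metal and redox genes gave some of the largest rises. HMOX1 (chromosome 22, 35380361 to 35394214, ENSG00000100292 on GRCh38), which breaks down haem, went from an estimated 8.13 to 5728 normalized counts. Of 18 metallothionein and zinc genes 10 were higher and 1 lower. Estimated levels went from 13.1 to 2956 for MT2A, from 3.21 to 901 for MT1E and from 0.959 to 129.7 for MT1X, and the zinc exporter gene SLC30A1 from 284 to 4180.1. The importer SLC39A10 fell by 1.17 ± 0.0683 in the authors' deposited table. MTF1, the factor that binds metal response elements, was 0.18 ± 0.137 and not called in the authors' deposited table. The metal response letters were in 6 of 13 promoters of this list (46.2%), near the 38% of tested protein-coding genes, and in 29.3% of all promoters, with 8 matches in the MT2A window, 8 in MT1H and 4 in MT1X. Metallothionein genes are close copies, so their counts are uncertain singly.

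Iron genes were divided, with 10 of 26 higher and 6 lower. BLVRB, a biliverdin reductase, rose by 4.29 ± 0.412, AIFM2, a suppressor of ferroptosis, by 2.25 ± 0.179, and FTH1, the ferritin heavy chain, by 1.49 ± 0.271 in the authors' deposited table. UROS, of haem synthesis, and SLC11A2, an iron importer, fell by 1.09 ± 0.103 and 0.52 ± 0.0847 in the authors' deposited table. In the glutathione and thioredoxin system 20 of 35 were higher and 9 lower. NQO1, GCLM and ME1, for quinone reduction, glutathione synthesis and NADPH supply, went from 153 to 3451, from 265 to 2329 and from 828 to 3858 estimated normalized counts. TXNRD1, which reduces thioredoxin, was another called gene with a high mean count, from 5003 to 14573. Enzymes that remove superoxide or peroxide went both ways: GPX1 and GPX3 rose by 0.61 and 1.94, while the list's largest falls were SOD2 at -1.09, PRDX2 at -0.93, PRDX4 at -0.77 and CAT at -0.67 in the authors' deposited table. Of 19 drug efflux and carbonyl-metabolism genes 11 were higher and 5 lower. ABCC3, an organic anion pump, rose by 5.23 ± 0.347, AKR1C3, a ketosteroid reductase, by 4.01 ± 0.0989, and ABCB1, the P-glycoprotein pump, fell by 2.00 ± 0.152 in the authors' deposited table. The AKR1C genes are close copies, so single values are uncertain.

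Most genes listed for both apoptotic routes were higher. Of 16 BH3-only and effector genes 11 were higher (68.8%) and 4 lower (25%). The 11 include BBC3, whose sign set the reading of the contrast, and without it 10 of 15 were higher. HRK, a BH3-only gene of neurons, rose by 3.06 ± 0.25, BAX and BAK1, the pore formers, by 1.01 ± 0.0789 and 1.05 ± 0.157, and the initiator caspase gene CASP9 by 1.37 ± 0.267 in the authors' deposited table. BCL2L11 and BMF, also BH3-only genes, fell, at -0.65 and -0.78 in the authors' deposited table, as did BID (-0.32) and DIABLO (-0.31) in the authors' deposited table. On the survival side 5 of 11 were higher and 3 lower. CFLAR, an inhibitor of caspase-8, rose by 1.47 ± 0.471 and MCL1 by 0.52 ± 0.0643, while BIRC5, BIRC3 and BCL2 fell by 1.09 ± 0.0676, 0.89 ± 0.365 and 0.68 ± 0.0635 in the authors' deposited table. BCL2L1 was 0.03 ± 0.105 and not called in the authors' deposited table.

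Of 15 death receptor genes 10 were higher (66.7%) and 1 lower. Their estimated levels rose from 5.51 to 195 for TNFRSF10D and from 5.41 to 46 for TNFRSF10C, decoy receptors, and from 1955 to 7052 for TNFRSF10B and from 212 to 1316 for TNFRSF1A, signalling receptors. CASP8 and CASP10, the initiator caspases of this route, rose by 1.88 ± 0.265 and 3.08 ± 0.522 in the authors' deposited table. The error of CASP10 was near the largest in LAN5 (0.539), so the size of its rise is uncertain. FADD and RIPK1, the adaptor and a kinase of the receptor complexes, were -0.04 ± 0.221 and -0.19 ± 0.148, not called in the authors' deposited table. TNFRSF21 was lower, at -0.55 ± 0.0806 in the authors' deposited table.

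Immune recognition genes had more higher than lower members, and most were weak. Only 10 of 23 MHC class I, 8 of 31 interferon-stimulated and 9 of 23 NF-kappaB genes had a mean of at least 100. In that order 52.2%, 41.9% and 52.2% of tested members were higher, and 4.35%, 6.45% and 4.35% lower. Protein-coding genes with a mean of 10 to 100 were 37.7% higher and 10.8% lower, so level alone was not set apart. Of 23 MHC class I genes 12 were higher and 1, PSME1 (-0.49 in the authors' deposited table), lower. ULBP1 and ULBP2 encode ligands of the activating receptor NKG2D and went from 6.39 to 375 and from 14.4 to 51.4 estimated normalized counts. HLA-B went from 4.32 to 66.1 and the peptide trimming gene ERAP2 from 17.8 to 122. Of 31 interferon-stimulated genes 13 were higher and 2 lower, with PARP14, ISG20 and IRF1 at 3.02, 2.99 and 2.51 and IFIT1 at -0.68 in the authors' deposited table. Of 23 NF-kappaB and cytokine genes 12 were higher and 1, BIRC3, lower, led among genes with a mean of 20 or more by IL11, LIF and TNFAIP2 at 3.92, 3.05 and 2.93 in the authors' deposited table. HLA genes vary between genomes, so alignment to 1 reference can bias their counts.

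Brakes of the cell cycle moved both ways, and most of its cyclins and kinases were lower. Of 8 CDK inhibitor genes 4 were higher and 3 lower. CDKN1A went from an estimated 484 to 5364 normalized counts, CDKN2B rose by 3.01 ± 0.432 and CDKN2A by 1.10 ± 0.425, while CDKN2C and CDKN1B fell by 1.67 ± 0.085 and 0.53 ± 0.0674 in the authors' deposited table. Of 19 cyclin and kinase genes 4 were higher and 11 lower. CCND1, a G1 cyclin gene, went from 29441 to 7953. CCND2, its relative, rose by 1.59 ± 0.539 in the authors' deposited table. That error is as large as the largest in LAN5 (0.539), so the size of this rise is uncertain. CCNB1, CCNA2 and CCNE1 fell by 2.39 ± 0.0779, 1.55 ± 0.0714 and 1.56 ± 0.175 in the authors' deposited table. Of 19 E2F and RB family genes 12 were lower and 5 higher, the higher ones being E2F7, LIN54, E2F6, RB1 and LIN52, at 1.44, 1.04, 0.95, 0.70 and 0.30 in the authors' deposited table. E2F7 and E2F6 encode repressors of the family.

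The machinery of DNA replication was mostly lower. Of 46 genes 36 were lower (78.3%) and 3 higher, a median of -0.61. GINS2, MCM6, MCM5 and POLD2 fell by 1.61 ± 0.0864, 1.39 ± 0.0606, 1.21 ± 0.0681 and 1.17 ± 0.105 in the authors' deposited table, and ORC3, ORC4 and RFC3 rose, by at most 0.28 in the authors' deposited table. The licensing gene CDT1 was not called, at -0.20 ± 0.0886 in the authors' deposited table. E2F letters as shown for MCM6 were in 16 of 40 replication promoters (40%), against 2.31% of all promoters and 3.41% of those of tested protein-coding genes. Of 26 nucleotide synthesis enzymes 22 were lower and 1 higher. The one that rose was RRM2B, the p53-inducible ribonucleotide reductase subunit, at 2.36 ± 0.0768, while RRM2, its S-phase counterpart, fell by 0.74 ± 0.0608 and the pyrophosphatase DCTPP1 by 1.72 ± 0.111 in the authors' deposited table. In the Fanconi, recombination and mismatch repair list 23 of 35 were lower and 1, RAD51C (0.51 in the authors' deposited table), was higher.

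Centromere and kinetochore genes, which attach chromosomes to the spindle, were also mostly lower, with a median of -0.42. CENPF and CENPA went from 21363 to 3668 and from 466 to 47.2 estimated normalized counts, and the kinesin CENPE fell by 1.53 ± 0.0787 in the authors' deposited table. Of 40 centromere genes 28 were lower (70%) and 5 higher, namely SKA1, ZWILCH, CENPQ, CENPL and CENPK, with SKA1 at 0.90 ± 0.0894 in the authors' deposited table. The letters of the cell cycle homology region were in 18 of 32 promoters of this list (56.2%), against 16.6% of all promoters and 11.8% of those of tested protein-coding genes. Of 24 cohesin, condensin and lamina genes 16 were lower and 3 higher. The B-type lamin genes LMNB1 and LMNB2 fell by 1.47 ± 0.0615 and 1.46 ± 0.0615, and LMNA, the A-type lamin, rose by 2.93 ± 0.0937 in the authors' deposited table. MKI67 (chromosome 10, 128096659 to 128126385, ENSG00000148773 on GRCh38), the proliferation marker, went from 17375 to 1629.8.

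Histone genes divided by class. Of 43 replication-dependent histone genes 25 were higher (58.1%) and 1, H4C3 (-1.79 in the authors' deposited table), was lower, a median of 1.24. H2AC6, H2BC11 and H2BC4 went from 69.6 to 653, from 20.6 to 187 and from 9.99 to 61.7 estimated normalized counts. Mature mRNAs of these genes normally end in a stem-loop and not in a poly(A) tail, and the libraries were made by poly(A) capture, so what is counted is the polyadenylated share. Only 11 of the 43 had a mean of at least 100, and close copies make single values uncertain. Of 10 replication-independent variants 8 were lower and 2, H2AJ and H3-3B, higher, with H2AX at -1.87 ± 0.0924 and the linker variant H1-10 at -1.46 ± 0.0862 in the authors' deposited table. CCAAT letters, read on both strands, were in 34 of 40 replication-dependent histone promoters (85%), in 35.7% of all promoters and in 36% of those of tested protein-coding genes.

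MYCN (chromosome 2, 15940564 to 15947007, ENSG00000134323 on GRCh38) went from an estimated 38549.6 to 10267 normalized counts, and the antisense gene MYCNOS from 1249 to 405. The use of strand in counting is not given, so reads of MYCN and MYCNOS cannot be told apart where they overlap. Of 11 genes of the amplicon region 6 were lower and 1 higher. NBAS and DDX1, which lie beside MYCN and are often amplified with it, fell by 0.72 ± 0.0816 and 0.57 ± 0.0522, MYCN was -1.90 ± 0.0488, and CYRIA rose by 2.59 ± 0.0981 in the authors' deposited table. Whether each neighbour is amplified in LAN5 is not given in the sources used here. In the MYC network 7 of 12 were lower and 2 higher. MYC went from 5.2 to 35.2, and MXD1, a repressor that pairs with MAX, rose by 1.49 ± 0.0869 while MXD3 fell by 2.85 ± 0.273 in the authors' deposited table.

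Genes for ribosome assembly and splicing were lower in larger shares than the 38.9% of all genes whose mean reached 100. Of 44 RNA polymerase I and III and ribosome assembly genes 31 were lower (70.5%) and 3 higher, with UTP20, NHP2 and DKC1, of ribosomal RNA processing, at -1.51, -1.34 and -0.93 in the authors' deposited table. NCL, nucleolin, and PTMA, prothymosin alpha, had some of the highest mean counts among genes that fell, from 30505 to 13912 and from 51846 to 23201 estimated normalized counts. Of 41 splicing regulators 34 were lower (82.9%) and only MBNL1 was higher, at 0.20 ± 0.0754 in the authors' deposited table. HNRNPD, PTBP2, HNRNPR and HNRNPA1 fell by 1.16 ± 0.0615, 1.01 ± 0.0757, 0.99 ± 0.059 and 0.96 ± 0.055 in the authors' deposited table. Of 75 cytosolic ribosomal protein genes 21 were lower and 5 higher, shares of 28% and 6.67% that both lie under those of genes whose mean reached 100 (38.9% and 28.2%), with RPL35 at -0.75 ± 0.167 and RPS19 at 0.59 ± 0.0821 in the authors' deposited table; pseudogene copies make their counts uncertain. Small nucleolar RNA host genes went the other way, 9 of 20 higher and 3 lower, led by GAS5 at 0.61 ± 0.0662 in the authors' deposited table. EIF1, a translation initiation factor, was the gene with the highest mean count among those with a rise of at least 1, from 7860.0 to 22704.

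Mitochondrial genes were lower in both genomes. Of 60 mitochondrial ribosomal protein genes 37 were lower (61.7%) and 3 higher (5%). Of 69 nuclear-encoded respiratory chain genes 39 were lower (56.5%) and 1, SDHD (0.55 in the authors' deposited table), higher. Among all genes whose mean reached 100, 38.9% were lower and 28.2% higher. MRPS34, MRPL23 and MRPL11 fell by 1.40 ± 0.0857, 1.38 ± 0.118 and 1.30 ± 0.123, and ATP5MC1 and NDUFB10 by 1.21 ± 0.11 and 1.13 ± 0.104 in the authors' deposited table. Of 13 mRNAs encoded in the mitochondrial genome 9 were lower (69.2%) and 1, MT-ND2, higher. The estimated levels of the 13 summed to 1105930 untreated and 677237 treated normalized counts. MT-CO1 went from 245793 to 108341 and MT-ND5 from 79099.7 to 23072. The mitochondrial share was also chosen as a sign of RNA quality, and its part in the other results was not tested.

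Energy and lipid genes were divided. Of genes whose mean reached 100, 28.2% were higher and 38.9% lower. Glycolysis had 11 of 26 genes higher (42.3%) and 8 lower (30.8%). The lactate exporter SLC16A3 rose by 3.02 ± 0.231 and ALDOA by 1.00 ± 0.0702, and the glucose carrier SLC2A1 and LDHA fell by 0.88 ± 0.11 and 0.70 ± 0.0699 in the authors' deposited table. Of 27 other hypoxia response genes 17 were higher (63.0%) and 2 lower (7.41%). BHLHE40, a repressor of the clock, went from 3.07 to 287 estimated normalized counts and NDRG1 from 154 to 1117, and the oxygen-sensing factors EPAS1 and HIF1A fell by 1.06 ± 0.305 and 0.24 ± 0.0737 in the authors' deposited table. Of 30 cholesterol genes 13 were lower (43.3%) and 7 higher (23.3%), shares near those of genes whose mean reached 100. SCAP, the sterol sensor, and NSDHL and SQLE, of sterol synthesis, fell by 0.91 ± 0.0778, 0.76 ± 0.142 and 0.62 ± 0.0681, while MYLIP and ABCG1, of uptake control and efflux, rose by 1.28 ± 0.151 and 1.16 ± 0.297 in the authors' deposited table. Of 24 fatty acid genes 13 were lower (54.2%) and 6 higher (25%), with SCD, the main desaturase, at -1.03 ± 0.0574 in the authors' deposited table. In polyamine metabolism the synthases SRM and SMS and the decarboxylase AMD1 fell by 1.29 ± 0.0995, 0.79 ± 0.0702 and 0.98 ± 0.0697, and the catabolic SAT1 and SMOX rose by 1.93 ± 0.105 and 1.68 ± 0.181 in the authors' deposited table.

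The adrenergic programme of the line was lower. Of 21 adrenergic core transcription factor genes 18 were lower (85.7%) and 1, TBX2, higher, with a median of -1.38. HAND2 went from 17059.7 to 5589.5 estimated normalized counts, GATA3 from 7407 to 4199, ISL1 from 5095 to 1785 and TFAP2B from 6663 to 1949. INSM1 and INSM2 were not called. The genes these factors are known for in sympathetic cells did not all follow: of 26 catecholamine and granule genes 12 were higher and 8 lower. The noradrenaline transporter SLC6A2, tyrosine hydroxylase TH and dopamine beta-hydroxylase DBH fell by 1.40 ± 0.0865, 0.86 ± 0.0844 and 0.64 ± 0.0861, while the neuropeptide and granule genes VGF, PCSK1 and SCG5 rose by 3.16 ± 0.0723, 2.91 ± 0.436 and 1.54 ± 0.300 in the authors' deposited table. Of 26 mesenchymal state genes 14 were higher and 4 lower. FOSL1, TGFB1, TGFBR2 and CD44 rose by 4.71 ± 0.251, 3.73 ± 0.289, 1.45 ± 0.23 and 1.25 ± 0.105, and TWIST1, NOTCH3, FN1 and SNAI1 fell by 1.44 ± 0.0731, 1.34 ± 0.166, 0.97 ± 0.126 and 0.42 ± 0.103 in the authors' deposited table. PRRX1, a defining factor of the mesenchymal state, was 0.64 ± 0.371 and not called in the authors' deposited table.

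Neuronal structure genes moved both ways. Of 30 neurofilament, microtubule and axon genes 10 were higher (33.3%) and 15 lower (50%). The mean of 29 of them reached 100, and of all genes at that level 28.2% were higher and 38.9% lower. The microtubule-associated MAP1A went from 773 to 6618 estimated normalized counts and the tubulin gene TUBB6 from 23.5 to 315, and the motor gene KIF1A from 5416 to 12445. STMN4, STMN1 and ELAVL4, of microtubule turnover and neuronal RNA binding, fell by 1.33 ± 0.0928, 1.08 ± 0.0604 and 1.07 ± 0.0567 in the authors' deposited table. Of 34 synaptic genes 16 were higher and 11 lower, with NRXN3 and SYT5 at 2.43 ± 0.155 and 1.99 ± 0.19 and SYN3 at -0.96 ± 0.301 in the authors' deposited table. Of 33 voltage-gated channel genes 15 were higher and 10 lower, and the calcium channel gene CACNA1G went from 2.76 to 273. Of 40 axon guidance genes 11 were higher (27.5%) and 15 lower (37.5%), against 22.5% and 19.2% of all tested genes. Among the 28 whose mean reached 100, 8 were higher and 14 lower, against 28.2% and 38.9% of all genes at that level. The repellent gene SLIT1 went from 1922 to 242, and the semaphorin receptor NRP1 was 1.84 ± 0.251 in the authors' deposited table.

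Of 19 genes listed as feedback inhibitors of ERK signalling, some of them phosphatases mainly of other MAP kinases, 13 were higher (68.4%) and 3 lower. DUSP5, a nuclear ERK phosphatase, rose by 2.18 ± 0.153 and SPRY4 by 1.24 ± 0.0722, and DUSP16 fell by 0.92 ± 0.0642 in the authors' deposited table. Of 29 receptor tyrosine kinase genes 13 were higher (44.8%) and 8 lower (27.6%), against 22.5% and 19.2% of all tested genes. Among the 15 whose mean reached 100, 6 were higher and 8 lower, so the excess of rises lay among weak genes. DDR2, NGFR and EPHA2 rose by 2.13 ± 0.0608, 1.43 ± 0.161 and 1.20 ± 0.107, and ALK, a receptor gene of neuroblastoma, EPHB2 and NTRK2 fell by 1.71 ± 0.0699, 1.33 ± 0.12 and 1.26 ± 0.0831 in the authors' deposited table. Of 26 Notch genes 11 were higher (42.3%) and 8 lower (30.8%), with the targets HES1 and HEY1 at 2.91 ± 0.203 and 2.57 ± 0.108 in the authors' deposited table. Of 31 Wnt genes 7 were higher (22.6%) and 12 lower (38.7%), against 22.5% and 19.2% of all tested genes. Among the 19 whose mean reached 100, 4 were higher and 12 lower, against 28.2% and 38.9% of all genes at that level. Of 34 BMP and TGF-beta genes 14 were higher (41.2%) and 11 lower (32.4%), with INHBE and TGFB1 at 4.52 ± 0.273 and 3.73 ± 0.289 in the authors' deposited table. At a mean of at least 100 the counts in this list were 8 higher and 9 lower of 23. IGFBP5, which binds insulin-like growth factors, went from 5466 to 714 estimated normalized counts. Of 33 matrix and integrin genes 13 were higher (39.4%) and 9 lower (27.3%). ITGA2 and COL6A3 were 4.79 ± 0.168 and 4.69 ± 0.124, and COL3A1 was -2.17 ± 0.218, in the authors' deposited table. Of 15 retinoid genes 6 were higher and 1 lower.

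Surface targets of neuroblastoma therapy were divided, 7 of 20 higher (35%) and 8 lower (40%). These shares lie near the 28.2% and 38.9% of genes whose mean reached 100, and 18 of the 20 were at that level. B4GALNT1, which completes the ganglioside GD2, rose by 0.82 ± 0.0746, and ST8SIA1, the enzyme before it, fell by 1.12 ± 0.129 in the authors' deposited table. DLK1, a surface protein gene, rose by 2.05 ± 0.466, and GPC2 fell by 0.79 ± 0.0815 in the authors' deposited table. CD276 was -0.16 ± 0.0749 and not called in the authors' deposited table. Of 19 clock genes 5 were higher and 5 lower, 26.3% each and so near the background. Of 16 cancer-testis genes 6 were higher and 4 lower, with SSX1 at 4.41 ± 0.435 and GAGE2A at -1.08 ± 0.298 in the authors' deposited table; these are close copies on the X chromosome and are uncertain singly.

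**Figure D4:**
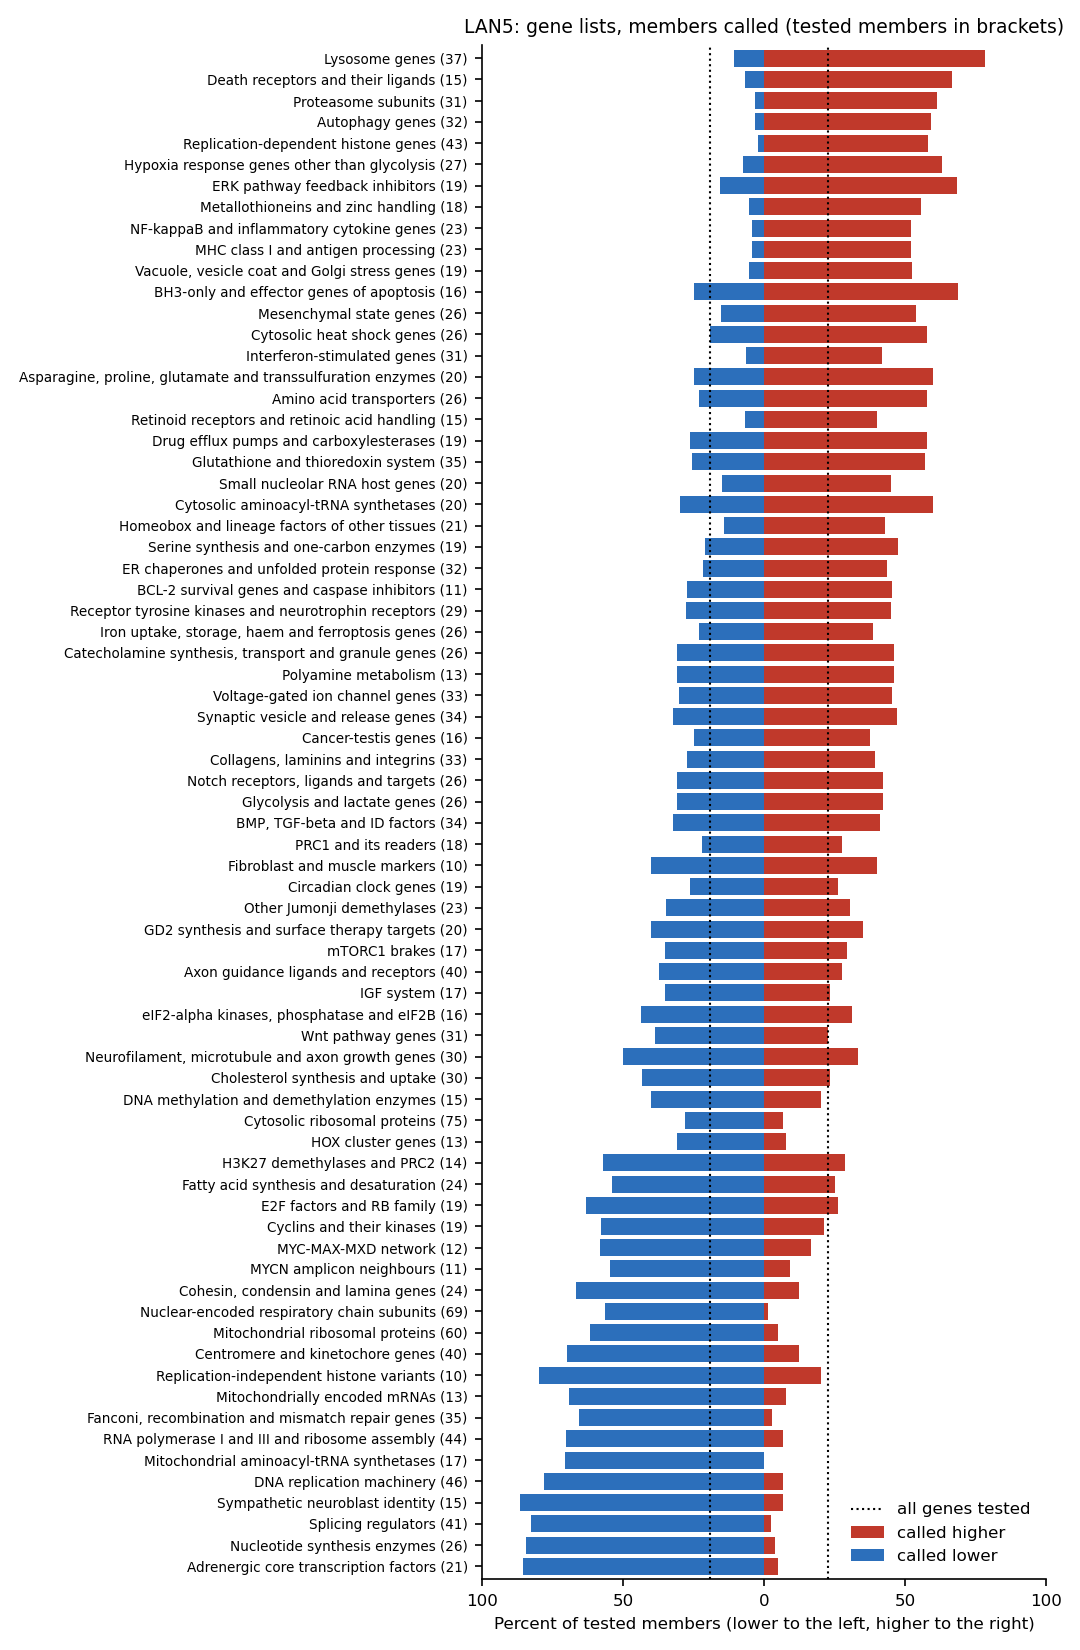
Each bar pair is 1 gene list with at least 10 tested members (number in brackets), red to the right for the percent called higher and blue to the left for the percent called lower, and dotted lines give the 22.5% and 19.2% of all tested genes. Lysosome genes stand at the top with 78.4% higher, and adrenergic factors at the bottom with 85.7% lower.

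Beyond the lists, the largest changes held further genes. FER1L6, F2RL2, a thrombin receptor relative, and HSPA6, a strictly stress-inducible HSP70, rose by 6.56 ± 0.38, 6.53 ± 0.37 and 6.16 ± 0.388 in the authors' deposited table, each from an estimated untreated level of at most 2.25 normalized counts. ADM2, an adrenomedullin relative, went from 10.8 to 963 and the stress cytokine GDF15 from 30.3 to 5279.9. Among the largest falls, COL6A6, a collagen chain, went from 1365 to 138, PLK1, the mitotic kinase, from 1566 to 180.4 and PEG10, a retrotransposon-derived imprinted gene, from 3207 to 557. Among genes with high mean counts and a change of at least 1, UCHL1, a neuronal deubiquitinase, went from 5589 to 13039, NRCAM, an adhesion molecule, from 4459.9 to 9947 and HMGB1, a chromatin protein, from 27772 to 13552. The long non-coding RNA NORAD, which is induced by DNA damage, went from 8862 to 18348. MIR22HG, the host of miR-22, went from 8.07 to 320.0, and LINC-PINT from 19.1 to 295. SLC7A11-AS1 went from 9.55 to 339, and its reads cannot be told apart from those of SLC7A11 without strand.

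Name families and chromosomes were counted as a description. Among families, of genes whose mean reached 100, TRIM ubiquitin ligase genes had 20 of 37 higher (54.1%) and 8 lower, RAB GTPase genes of vesicle traffic 23 of 45 higher (51.1%) and 9 lower, and kinesins 5 of 30 higher and 16 lower (53.3%). Zinc finger genes named ZNF had 121 of 386 higher (31.3%) and 101 lower (26.2%), against 28.2% and 38.9% of all genes at that level. Of 13 tested keratin genes 8 were higher and none lower, all but 1 with a mean under 100. Protein-coding genes whose mean reached 100 were higher in between 18.4% on chromosome 21 and 35.5% on chromosome 12, and lower in between 32.2% on chromosome 18 and 45.0% on chromosome 22.

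The response of LAN5 was set against that of IMR5, also MYCN-amplified, and SK-N-FI, without MYCN amplification, both labelled sensitive and given the same dose for the same time, with 3 treated and 3 untreated libraries each. The lines share no control. Fold changes of IMR5 and SK-N-FI were also read as GSK-J4 over untreated, a direction not stated for them either. Each difference rests on that reading. The SK-N-FI table was assigned by the likeness of its short name and by elimination, so each SK-N-FI value rests on that reading. Differences of prior-removed log2 fold changes were tested by a two-sided Wald test with Benjamini-Hochberg adjustment over all genes whose mean reached 100 in both tables. LAN5 lay above IMR5 for 2639 of 9895 genes (26.7%) and below for 3402 (34.4%). It lay above SK-N-FI for 2170 of 9855 (22%) and below for 3027 (30.7%). Of 9215 genes tested against both, 1147 (12.4%) lay above both and 1697 (18.4%) below both. The excess below turned when each table was centred on its median, with 3008 genes above IMR5 and 2955 below, and 2649 above SK-N-FI and 2507 below.

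Several degradation and stress lists held larger shares above both lines than the 12.4% of all genes tested against both, and others did not. Of 32 lysosome genes tested 21 (65.6%) lay above both lines and 2 below both, with median prior-removed log2 fold changes of 0.80 (LAN5), 0.00 (IMR5) and 0.11 (SK-N-FI). Of 30 proteasome genes 15 lay above both and none below both, with medians of 0.26, -0.60 and -0.09. Of 22 heat shock genes 14 lay above both and 2 below both. Of 11 BH3-only and effector genes 6 lay above both and none below both, with medians of 0.69, 0.15 and 0.23. BBC3, whose sign set the reading of the LAN5 contrast, was not set aside from that list. Of 31 glutathione and thioredoxin genes 9 lay above both and 4 below both. Under the share of all genes were the endoplasmic reticulum list with 3 of 28 above both (10.7%), vesicle coat and Golgi genes with 2 of 18 (11.1%), mTORC1 brakes with 1 of 13 (7.69%) and eIF2 regulators with 1 of 15 (6.67%).

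Adrenergic, ribosomal and respiratory lists held larger shares below both lines than the 18.4% of all genes tested. Of 14 adrenergic factors tested 12 (85.7%) lay below both lines and 1 above both, with medians of -1.46 (LAN5), -0.15 (IMR5) and -0.54 (SK-N-FI). HAND2 was -1.61 ± 0.0917 (LAN5), -0.09 ± 0.0618 (IMR5) and -0.72 ± 0.113 (SK-N-FI). Of 74 cytosolic ribosomal protein genes 60 (81.1%) lay below both and none above both, with medians of -0.16, 0.40 and 0.72. Of 62 nuclear-encoded respiratory chain genes 20 lay below both and none above both. Of 46 replication genes 8 lay above both and 4 below both, shares of 17.4% and 8.70% beside 12.4% and 18.4% of all genes tested against both. Mitochondrially encoded mRNAs lay below IMR5 for 7 of 13 and above SK-N-FI for 10 of 13.

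MYCN itself was -1.91 ± 0.0489 (LAN5), -1.08 ± 0.0709 (IMR5) and -0.32 ± 0.215 (SK-N-FI) on the prior-removed log2 scale. Single genes that set LAN5 apart by the most were named by their smaller difference from the other 2 lines. HMOX1 was 9.46 ± 0.264 (LAN5), -0.97 ± 0.207 (IMR5) and 2.38 ± 0.16 (SK-N-FI). ITGA2, a collagen-binding integrin gene, was 4.91 ± 0.172, 0.67 ± 0.147 and 0.46 ± 0.183. ASS1 was 4.64 ± 0.121, 0.44 ± 0.0524 and -0.54 ± 0.106. For these 3 genes LAN5 stood far above both lines, and HMOX1 and ASS1 had opposite signs in IMR5 and SK-N-FI. MAP1A was 3.10 ± 0.0704, -1.10 ± 0.0734 and -0.90 ± 0.206, positive in LAN5 and negative in both others. In the downward direction GAS2L3, a cytoskeletal linker of dividing cells, was -3.12 ± 0.144, 0.15 ± 0.105 and -0.22 ± 0.12. RPL22L1, a paralogue of the ribosomal protein gene RPL22, was -2.05 ± 0.0851, 0.68 ± 0.15 and 1.00 ± 0.183, and IL17RD, an inhibitor of growth factor signalling, was -2.12 ± 0.0642, 0.30 ± 0.105 and 0.04 ± 0.101. The endothelin receptor gene EDNRA was -2.34 ± 0.0987, 0.28 ± 0.136 and 0.28 ± 0.119.

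**Figure D5:**
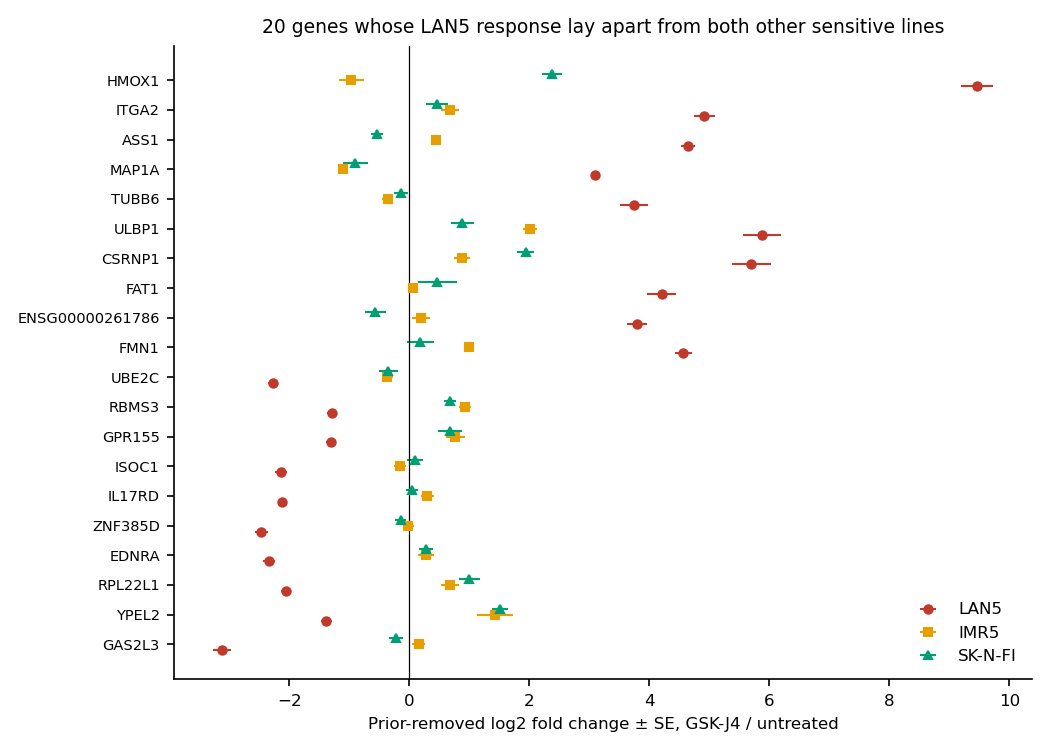
Points are prior-removed log2 fold changes with standard errors (bars) in LAN5 (circles), IMR5 (squares) and SK-N-FI (triangles) for the 10 genes in each direction that lay farthest from both other lines. HMOX1 stands at 9.46 in LAN5 against 2.38 in SK-N-FI and -0.97 in IMR5, and the lower 10 genes lie at -1.30 or below in LAN5.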

How the data were processed

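Polyadenylated RNA was sequenced with a stranded mRNA kit, per the labels' protocols. Per the submitters' processing notes, STAR, FastQC and DESeq2 were used with hg38. Their versions, the annotation release, the counting tool and its use of strand are details not given in the sources. The LAN5, IMR5 and SK-N-FI tables hold the authors' own comparisons, 1 per line. The signal is the deposited mean of normalized counts over a line's libraries, per the file headers. The deposited fold change and its standard error are on the log2 scale, and the Wald statistic, a score, was deposited beside them. Each p-value, raw or Benjamini-Hochberg adjusted, was likewise deposited. Library values were not used, so depth per library, edgeR, other normalizations, leaving out libraries and a replicate block, all planned, could not be had.

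Gene names and types came from GENCODE release 29 and coordinates are on GRCh38; 33282 of 33561 identifiers matched. The normal prior was removed with its width taken as 2 times the largest deposited standard error (LAN5 0.539, IMR5 0.490, SK-N-FI 0.428), choosing between the solutions at the mean where the running median error over 501 genes peaks. The standard error so obtained had a median of 0.0976 over LAN5 genes whose mean reached 100. On simulated differences for 9895 genes between LAN5 and IMR5 the Wald test called 42 of 67 differences of 0.5, 65 of 66 of 1 and 67 of 67 of 2, and 8 of 9695 unchanged genes. For 9855 genes between LAN5 and SK-N-FI it called 35 of 73, 51 of 55 and 72 of 72, and 7 of 9655. Far more genes were called different in the data than were changed in the simulation, so these rates may not hold there. Promoters are RefSeq's; 12385 of 15503 tested protein-coding symbols matched.

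The members and the 75 gene lists were chosen with earlier results of these data known, so list counts are descriptions and support nothing independently. Genes were named by rule: the 15 largest rises and falls with a mean of at least 100, up to 4 called rises and falls per list with a mean of at least 20 (every member of lists of up to 20, and exceptions of up to 5), the 10 farthest from both other lines in each direction, the 10 called genes of highest mean with an absolute log2 fold change of at least 1 in each direction, 5 non-coding rises and falls, and KDM6A, KDM6B, EZH2, MYCN and BBC3. CDT1, GPX1, HOXC13, HSPA5, MTF1, PRRX1, RRM2 and SLC30A1 were chosen after their values were seen. A few genes are counted in their lists but not reported here by name. Python 3.11.15, pandas 2.3.3, numpy 2.4.6 and scipy 1.17.1 were used. Alternatives were an adjusted p under 0.01, a mean of at least 100 or 20, an absolute log2 fold change of at least 1, centring on the median, and fold changes as deposited.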

Additional observations from a re-analysis of the deposited data

Results flagged for a closer look

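For 20 genes the response of LAN5 differed most from that of both other sensitive lines, each by the two-sided Wald test of the difference itself. The smaller of the 2 differences in prior-removed log2 fold change, LAN5 minus the nearer line, was 7.08 for HMOX1, 4.24 for ITGA2, 4.20 for ASS1, 4.0 for MAP1A, 3.88 for TUBB6, 3.86 for ULBP1, 3.76 for CSRNP1, 3.74 for FAT1, 3.60 for ENSG00000261786 and 3.57 for FMN1. Among genes lower in LAN5 it was -2.90 for GAS2L3, -2.81 for YPEL2, -2.73 for RPL22L1, -2.62 for EDNRA, -2.32 for ZNF385D, -2.16 for IL17RD, -1.98 for ISOC1, -1.98 for GPR155, -1.97 for RBMS3 and -1.91 for UBE2C. ULBP1 is a ligand gene of NKG2D, FAT1 an atypical cadherin, FMN1 a formin, UBE2C a mitotic ubiquitin-conjugating enzyme and GPR155 a lysosomal membrane protein. Each SK-N-FI value rests on the assignment of that line's table by name. HMOX1, ULBP1 and CSRNP1 had estimated untreated means of 8.13, 6.39 and 6.3 normalized counts in LAN5, so their sizes rest on weak untreated signals.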

How the results depend on the processing

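No paired analysis was possible because values of single libraries were not used, so a replicate block, leaving out single libraries, edgeR and other normalizations were not run. With an adjusted p under 0.01, 4648 genes were higher and 4239 lower. Requiring a mean of 100 and adjusting p again gave 3255 higher, against 5792 without that minimum, since fewer genes were tested, and 4509 lower. With an absolute log2 fold change of at least 1, 3051 were higher and 1003 lower. Centring on the median of genes whose mean reached 100 gave 6690 higher and 4155 lower. The counts of differences from IMR5 and SK-N-FI stayed within 1.5 times under the 4 alternatives run for each, but with each table centred on its median more genes lay above than below, 3008 against 2955 for IMR5 and 2649 against 2507 for SK-N-FI. The balance of members higher minus lower changed sign for 8 lists, and the cause was not tested: Jumonji demethylases 1 when centred, homeobox factors of other tissues -2, CDK inhibitors -1, receptor tyrosine kinases -1 and BMP and TGF-beta genes -1 with a mean minimum of 100, eIF2 genes 2 and cholesterol genes 2 with an absolute log2 fold change of at least 1, and mTORC1 brakes 1 with an adjusted p under 0.01, 4 with that fold minimum and 4 when centred. Of the named genes tested under each setting, 46 lost their call with an adjusted p under 0.01 and 26 when centred. Weak genes limit the rises: below a mean of 10 the untreated level is often near 0.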
